A study of Mus musculus with 2 samples.

Results

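The 4 nuclear factor I (NFI) genes Nfia, Nfib, Nfic and Nfix and the zinc finger genes Zbtb18 and Zbtb20 were followed through the cell types of the newborn mouse telencephalon. These 6 genes were taken by name from the 27998 genes of the count matrices, and all 6 were detected in both libraries. Single cells came from telencephalic tissue of C57BL/6 mice at P0, and 1 library was made per genotype. The groups were wild-type controls (WT) and the STING conditional knockout (cKO), labelled STINGf/f;Nestin-Cre, in which the Nestin promoter drives Cre, and so loss of STING, in the neural lineage. The methods name STING fl/fl mice as controls, where the labels have WT. The deletion is not aimed at microglia or vessels. The number of animals behind each library is not given in the sources used here, and with 1 library per genotype no test between genotypes was possible. Every interval below covers counting error within a library, not the spread between animals.

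The NFI proteins bind DNA as dimers at a TTGGC motif and are known for switching radial glia, the stem cells of the cortex, towards glia and for the maturation of neurons. Nfia is an early driver of the astrocyte lineage, Nfib and Nfix act in radial glia, intermediate progenitors and neurons of the cortex and hippocampus, and Nfic is expressed widely in the body. Zbtb18 (also RP58) is a repressor that binds E-boxes of the CATCTG type and promotes the differentiation and migration of cortical neurons. Zbtb20 is a repressor known for hippocampal fate, for the timing of cortical layers and for astrocyte formation.

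By the Ensembl identifiers of the matrices, the GENCODE annotation of GRCm38 places Nfia at chr4:97772734-98118874 on the plus strand and Nfib at chr4:82290173-82705750 on the minus strand. Nfic lies at chr10:81396186-81455635 (minus), Nfix at chr8:84699876-84800344 (minus), Zbtb18 at chr1:177442351-177450764 (plus) and Zbtb20 at chr16:42875881-43642602 (plus). All are protein coding. Genes on the opposite strand overlap every one of them, the most abundant being E130114P18Rik inside Nfia with 1607 UMIs in WT and 1274 in cKO, against 14604 and 13294 for Nfia itself. No counted gene on the same strand overlapped a member.

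RefSeq promoter windows (GRCm38.p6, 250 bases before to 50 after an annotated start) were found for 5 of the 6 genes and were searched on both strands for TTGGC, the NFI motif, and for CATCTG, the Zbtb18 type of E-box. The motifs do not overlap each other. Among 32851 such windows, 46.7% held TTGGC and 17.2% held CATCTG, while 12 held the complete palindromic NFI site. The windows of Nfix, Zbtb18 and Zbtb20 are shown as the gene whose interval for cKO over WT lay above 0 in the most groups, the gene whose own level peaked in upper layer-like cells and the gene whose interval lay below 0 in the most groups, with matches in capitals. The Nfix window at chr8:84772826-84773125 (minus strand) held a pair of TTGGC motifs in opposite orientations and 1 CATCTG match, whereas the other 3 Nfix windows held 1, 1 and 0 TTGGC motifs. All 5 Zbtb18 windows held 1 CATCTG match, although windows 2 and 3 share most of their bases, and the window shown is chr1:177442101-177442400 (plus strand, 81.7% G and C). The Zbtb20 window at chr16:43247034-43247333 (plus strand) held neither motif. A match is a description of the letters and not evidence of binding.
Nfix window: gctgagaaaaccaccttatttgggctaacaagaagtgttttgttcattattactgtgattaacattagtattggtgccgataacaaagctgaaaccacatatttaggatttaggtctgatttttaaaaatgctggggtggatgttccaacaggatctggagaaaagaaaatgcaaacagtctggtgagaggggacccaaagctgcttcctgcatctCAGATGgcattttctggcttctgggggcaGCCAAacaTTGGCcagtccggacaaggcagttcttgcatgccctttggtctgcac
Zbtb18 window: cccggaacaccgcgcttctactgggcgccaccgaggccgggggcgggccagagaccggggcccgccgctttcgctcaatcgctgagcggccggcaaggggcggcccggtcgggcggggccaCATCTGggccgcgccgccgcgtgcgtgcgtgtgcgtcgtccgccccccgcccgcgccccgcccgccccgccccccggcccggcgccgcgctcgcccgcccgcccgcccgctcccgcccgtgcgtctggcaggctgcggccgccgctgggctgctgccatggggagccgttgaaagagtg
Zbtb20 window: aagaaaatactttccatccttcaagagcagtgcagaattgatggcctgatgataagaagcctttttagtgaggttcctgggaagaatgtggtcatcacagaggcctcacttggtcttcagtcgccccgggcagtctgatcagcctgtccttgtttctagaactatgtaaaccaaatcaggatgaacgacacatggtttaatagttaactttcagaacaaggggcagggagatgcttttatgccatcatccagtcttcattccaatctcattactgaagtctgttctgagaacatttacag

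After filtering, 6601 WT and 5974 cKO cells remained, with a median of 6552 and 7537 UMIs per cell. A unique molecular identifier (UMI) marks 1 captured RNA molecule, and levels are given as the UMIs of a gene in a cell group scaled to CPM, that is per 1000000 UMIs, with a 95% Poisson interval in parentheses. Cells were sorted into groups by the UMIs of marker genes, none of which was a member. Tmem173, the gene of STING, had 126 UMIs in WT and 18 in cKO. Whether its reads fall inside the deleted part is not given in the sources used here. The libraries also differed in sex, with 71370 Xist UMIs in cKO against 10 in WT and 9771 UMIs of 4 Y-linked genes in WT against 6 in cKO, so genotype, sex and library cannot be told apart. In unsupervised clustering, 9 of 28 clusters drew over 95% of their cells from 1 library and held 46.1% of all kept cells, and all 9 were assigned to neuronal groups. Of upper layer-like cells, 54.4% in WT lay in cluster 2 and 81.3% in cKO in cluster 0. Projection neuron-like cells without a layer call lay most often in cluster 3 in WT and 1 in cKO, the other GABAergic-like cells in 6 and 19, striatal-type cells in 13 and 15, and cells with both Eomes and neuronal markers in 3 and 1, so values in these classes are set between different clusters. Astrocyte-like, Eomes precursor-like and interneuron-like cells shared their leading cluster between the libraries, but not all of their cells lay in it. Of Eomes precursor-like cells, 34.4% in WT lay in cluster 3 and 21.7% in cKO in cluster 1. Of interneuron-like cells, 18.4% in WT and 2.42% in cKO lay in cluster 12, assigned to the other GABAergic-like cells. Between the libraries 19 barcodes were shared, 8 of them among kept cells.

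Radial glia-like cells held at least 30 UMIs from at least 5 of 11 radial glia markers (Slc1a3, Fabp7, Pax6 and others) and at most 2 UMIs of 12 astrocyte markers, and numbered 31 in WT and 34 in cKO. Astrocyte-like cells passed the same gate and held at least 6 UMIs of at least 3 astrocyte markers such as Aqp4 and Aldh1l1 (544 and 358 cells). The radial glia markers summed to 11584 CPM in WT and 10285 CPM in cKO in radial glia-like cells, against 34699 and 26355 CPM in astrocyte-like cells. Oligodendrocyte precursor markers summed to 1077.5 and 483 CPM in radial glia-like cells. Of these cells, 16.1% in WT and 29.4% in cKO lay in cluster 5, assigned to cycling cells with Dlx genes. The part of this in the differences from astrocyte-like cells was not tested. Eomes precursor-like cells held Eomes and at least 4 UMIs of intermediate progenitor markers without passing the projection neuron gate (64 and 69 cells), and cells with both Eomes and projection neuron markers were kept apart (60 and 76 cells). Projection neuron-like cells were split into upper layer-like (1095 and 1011), layer 5-like (229 and 255), layer 6-like (129 and 156) and the remaining cells without a layer call (890 and 1024). Interneuron-like (152 and 207) and striatal-type cells (154 and 73) were set by their own markers outside the projection neuron gate, whether or not they passed the GABAergic gate. The remaining cells that passed the GABAergic gate were the other GABAergic-like cells (958 and 753). GABAergic markers summed to 2203 CPM in WT and 2615 CPM in cKO in interneuron-like, 902 and 821 CPM in striatal-type and 3517 and 3718 CPM in the other GABAergic-like cells. Olfactory neuroblast markers such as Sp8 and Meis2 summed to 2739 CPM in WT and 1668 CPM in cKO in the other GABAergic-like cells. The groups differed in depth, from a median of 4314 UMIs in the other GABAergic-like cells to 18166 in layer 5-like cells of WT.

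Nfia was highest in radial glia-like, astrocyte-like and Eomes precursor-like cells and lower in the layered and GABAergic neurons of both libraries. Oligodendrocyte precursor-like cells, at 340.2 CPM in WT and 252 CPM in cKO, were near the neuronal levels. In radial glia-like cells it was at 753 CPM (626 to 898) in WT and 681 CPM (575 to 802) in cKO. In astrocyte-like cells it was at 648 CPM (623 to 674) in WT and 599 CPM (572 to 626) in cKO, and in Eomes precursor-like cells at 734 CPM (655 to 820.3) in WT and 651 CPM (586 to 720) in cKO. These levels lay close together, and the neighbours in their order overlapped in their intervals in both libraries. Projection neuron-like cells without a layer call held 345 CPM in WT and 327 CPM in cKO, and layer 6-like cells held 245 CPM in WT and 241 CPM in cKO. Upper layer-like cells were at 81.7 CPM (76.6 to 87.0) in WT and 94.8 CPM (89.2 to 101) in cKO, so that the Eomes precursor-like level was 8.99 times as high in WT and 6.86 times as high in cKO. The cKO value depended on the cell filter, with log2 differences from 1.28 under a stricter filter, of at least 1000 genes and at most 5% mitochondrial UMIs per cell, to 2.98 with the marker minimum doubled.

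Nfib was highest in the Eomes groups and not in radial glia. It stood at 3226 CPM (3057 to 3401) in WT and 3743 CPM (3587 to 3905) in cKO in Eomes precursor-like cells and at 3202 CPM in WT and 3753 CPM in cKO in cells with both Eomes and neuronal markers, levels that overlapped within each library. Radial glia-like cells were lower, at 1494 CPM (1312 to 1694) in WT and 1409.8 CPM (1254 to 1579) in cKO. Astrocyte-like cells were lower again, at 887 CPM (858 to 918) in WT and 1025 CPM (990.4 to 1060.2) in cKO, a log2 difference of radial glia-like over astrocyte-like cells of 0.75 (0.56 to 0.94) in WT and 0.46 (0.28 to 0.63) in cKO. Among neurons, the other GABAergic-like cells held 1936 CPM in WT and 1648 CPM in cKO, and upper layer-like cells held 743 CPM in WT and 1389 CPM in cKO. The place of astrocyte-like cells relative to upper layer-like cells differed by library, with a log2 difference of 0.26 (0.20 to 0.31) in WT and -0.44 (-0.49 to -0.38) in cKO. The WT difference was -0.092 under a stricter cell filter and -0.015 with the mean of single-cell CPM, and the cKO difference ran from -1.24 under the stricter filter to -0.031 with Leiden clusters.

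Nfix followed Nfib among the progenitors but stayed high in cortical neurons. Its level in Eomes precursor-like cells was 2998 CPM (2835 to 3167) in WT and 4152 CPM (3987 to 4322) in cKO. Radial glia-like cells held 1427 CPM (1249 to 1622) in WT and 1594 CPM (1429 to 1774) in cKO, and astrocyte-like cells held 595 CPM (572 to 620.2) in WT and 846 CPM (815 to 878) in cKO. The cells between these 2 groups, which passed the radial glia gate with more than 2 astrocyte UMIs but not the astrocyte gate (67 and 81 cells), were intermediate at 779 CPM in WT and 1305 CPM in cKO. In upper layer-like cells Nfix was at 1721 CPM (1697 to 1745) in WT and 3093 CPM (3060.4 to 3125) in cKO, which gave a log2 difference of astrocyte-like over upper layer-like cells of -1.53 (-1.59 to -1.47) in WT and -1.87 (-1.93 to -1.81) in cKO. Layer 5-like cells held 1054 CPM in WT and 1686 CPM in cKO, and layer 6-like cells held 1219.8 CPM in WT and 2389.9 CPM in cKO. Both genes were low in striatal-type cells, where Nfix was at 102 CPM in WT and 68.8 CPM in cKO and Nfib at 97.3 CPM in WT and 31.2 CPM in cKO.

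Nfic had the fewest UMIs of the members, with 2909 UMIs in all WT cells and 2854 in all cKO cells. Among the 15 neural groups its highest level was in cycling radial glia-like cells, at 139.6 CPM (112 to 172) in WT and 129 CPM (101 to 162) in cKO, and astrocyte-like cells held 84.2 CPM (75.3 to 93.8) in WT and 69.3 CPM (60.5 to 78.9) in cKO. The 15 groups, here and below, leave out cycling Eomes, Cajal-Retzius-like, oligodendrocyte precursor-like and ependymal-like cells. Cycling Eomes cells (23 and 13 cells) held Nfic at 153 CPM (108 to 210) in WT and 134 CPM (87.3 to 196) in cKO. Neuronal groups were lower, and upper layer-like cells held 35.1 CPM (31.8 to 38.7) in WT and 43.5 CPM (39.7 to 47.5) in cKO. With so few UMIs most neighbours in its order overlapped, and Nfic was also present outside the neural lineage, at 97.0 CPM in WT and 78.9 CPM in cKO in microglia-like cells.

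**Figure D1:**
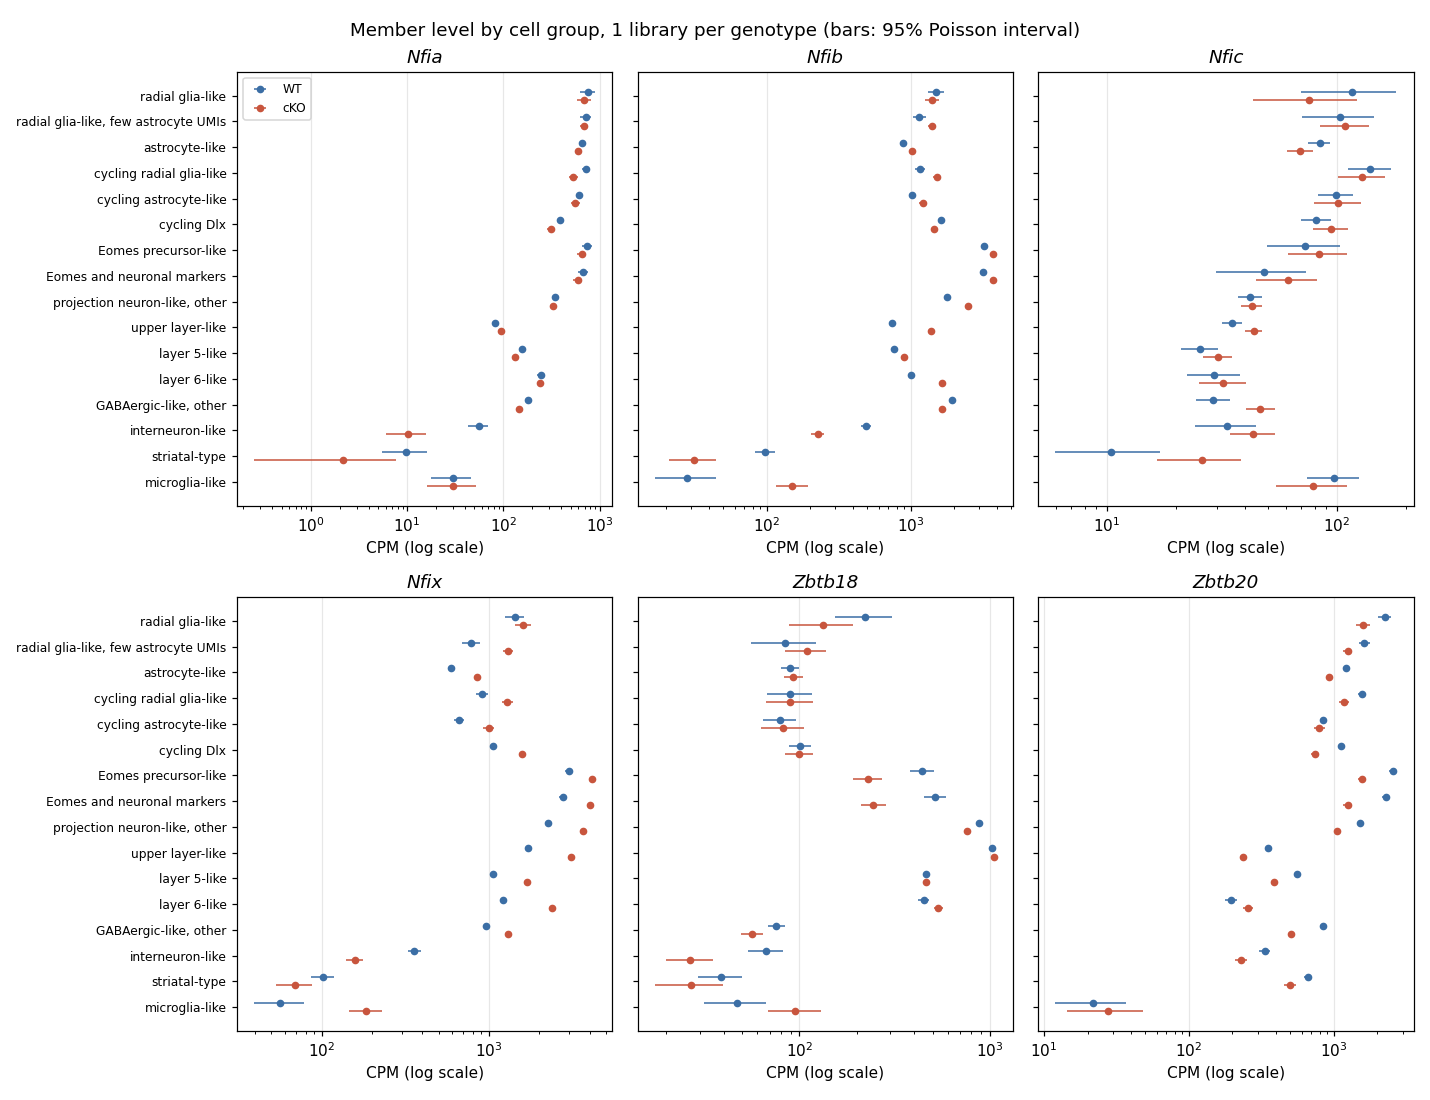
Level of each member in 15 neural groups and in microglia-like cells, as CPM on a log axis, for the WT (blue) and cKO (red) library, with 95% Poisson intervals. Nfib and Nfix peak in the Eomes groups and Zbtb18 in upper layer-like cells at 1023 and 1056 CPM. Among the 15 neural groups, Nfia is lowest in striatal-type cells, and Zbtb20 in layer 6-like cells of WT and interneuron-like cells of cKO.

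Zbtb20 was high in progenitors and low in layered neurons. It was at 2265 CPM (2040.3 to 2508) in WT and 1599 CPM (1433 to 1779) in cKO in radial glia-like cells and at 2558 CPM (2408 to 2714) in WT and 1571 CPM (1470.0 to 1677) in cKO in Eomes precursor-like cells, and the intervals of these groups overlapped in both libraries. Astrocyte-like cells held 1227 CPM (1192 to 1262) in WT and 931 CPM (899 to 965) in cKO, lower than radial glia-like cells, with a log2 difference of radial glia-like over astrocyte-like cells of 0.88 (0.73 to 1.04) in WT and 0.78 (0.61 to 0.94) in cKO. Projection neuron-like cells without a layer call kept 1518 CPM in WT and 1057 CPM in cKO, while upper layer-like cells were at 352 CPM (341 to 363) in WT and 236 CPM (227 to 245) in cKO. Layer 6-like cells held 197 CPM in WT and 257 CPM in cKO, below upper layer-like cells in WT and level with them within the intervals in cKO. Pan-neuronal markers summed to 7481 CPM in the cells without a layer call and to 9412 CPM in upper layer-like cells of WT. Depth differed in the same direction, with medians of 5940.0 and 9755 UMIs per cell. The part of both in the difference was not tested. Hippocampal pallium markers summed to 135 CPM in WT and 99.3 CPM in cKO in radial glia-like cells. Eomes precursor-like cells held 122 and 90.5 CPM, astrocyte-like cells 38.2 and 36.2 CPM and cells without a layer call 21.5 and 15.5 CPM. GABAergic groups did not follow this order, with 101 and 41.3 CPM in interneuron-like and 67.4 and 80.3 CPM in the other GABAergic-like cells. The part of the hippocampal markers in the Zbtb20 levels and ratios was not tested.

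Zbtb18 and Zbtb20 moved in opposite directions between neurons without a layer call and upper layer-like cells, but not at every step. Zbtb18 was at 1023 CPM (1005 to 1042) in WT and 1056 CPM (1037 to 1075) in cKO in upper layer-like cells, its highest group in both libraries, and at 876 CPM in WT and 760.1 CPM in cKO in projection neuron-like cells without a layer call. Layer 5-like cells held 464 CPM in WT and 463 CPM in cKO, and layer 6-like cells held 448 CPM in WT and 537 CPM in cKO. Like Zbtb20, Zbtb18 was thus lower in both of these groups than in cells without a layer call. Eomes precursor-like cells held 440 CPM (379 to 508) in WT and 228 CPM (191 to 270.4) in cKO, and radial glia-like cells held 220.4 CPM (154 to 305) in WT and 132 CPM (88.0 to 191) in cKO. In astrocyte-like cells Zbtb18 was at 89.5 CPM (80.4 to 99.4) in WT and 92.9 CPM (82.7 to 104) in cKO, a log2 difference from upper layer-like cells of -3.51 (-3.67 to -3.36) in WT and -3.51 (-3.68 to -3.34) in cKO. GABAergic groups were similarly low, with 75.7 CPM in WT and 56.5 CPM in cKO in the other GABAergic-like cells, so that among neurons Zbtb18 marked the projection neuron groups in both libraries.

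Eomes precursor-like cells were compared with upper layer-like cells over all genes with at least 10 UMIs. In WT, 4 of the 6 members were over 2-fold higher in the precursors and Zbtb18 was over 2-fold lower, where 33.9% of all genes passed 2-fold in either direction. In cKO, 3 members were over 2-fold higher and Zbtb18 had a log2 difference of -2.21 (-2.47 to -1.96), against a background of 35.6%. Nfic was the gene that made the difference between the libraries, with log2 differences of 1.05 (0.48 to 1.58) and 0.94 (0.48 to 1.37) on either side of 2-fold. Over the alternatives the number of members higher in the precursors ran from 3 to 4 in WT and from 2 to 4 in cKO, and the cKO difference of Nfib was 0.82 under a stricter cell filter. For astrocyte-like over upper layer-like cells, 3 members were over 2-fold higher and 2 lower in WT with 44.9% of genes past 2-fold, and 2 were higher and 2 lower in cKO with 48.4% past 2-fold. Differences of this size were therefore common among genes in these contrasts. Nfia and Zbtb20 were the members over 2-fold higher in astrocyte-like cells of both libraries, and Nfix and Zbtb18 those lower. Under the stricter cell filter the cKO difference of Zbtb20 was 0.97, below 2-fold, against 1.98 (1.91 to 2.06) here.

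The make-up of the NFI UMIs differed from group to group. Counts from the 3′ end do not scale with transcript length, but capture can differ between genes, so the shares are compared between groups for the same gene. Nfia made up 29.3% (28.3 to 30.2%) of NFI UMIs in astrocyte-like cells of WT (95% Clopper-Pearson interval) and 23.6% (22.7 to 24.5%) in cKO. In upper layer-like cells it made up 3.16% (2.97 to 3.37%) and 2.05% (1.93 to 2.18%). Nfix took 26.9% (25.9 to 27.8%) in astrocyte-like cells of WT and 33.3% (32.3 to 34.3%) in cKO, and 66.7% (66.1 to 67.2%) and 66.9% (66.5 to 67.3%) in upper layer-like cells. Among the 15 neural groups Nfib had its largest share in the other GABAergic-like cells, at 62.3% (61.5 to 63.1%) in WT and 52.4% (51.5 to 53.3%) in cKO. Among the same groups of each library, the share of Nfia was highest in astrocyte-like cells and that of Nfix in upper layer-like cells. Outside these groups, ependymal-like cells were not below astrocyte-like cells, with Nfia at 31.9% (29.2 to 34.6%) in WT and 23.9% (20.8 to 27.3%) in cKO. Oligodendrocyte precursor-like cells were near them in WT at 28.5% (26.7 to 30.3%) and lower in cKO, with an interval of 17.9 to 22.2%. A high share of Nfia was thus not particular to astrocyte-like cells.

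**Figure D2:**
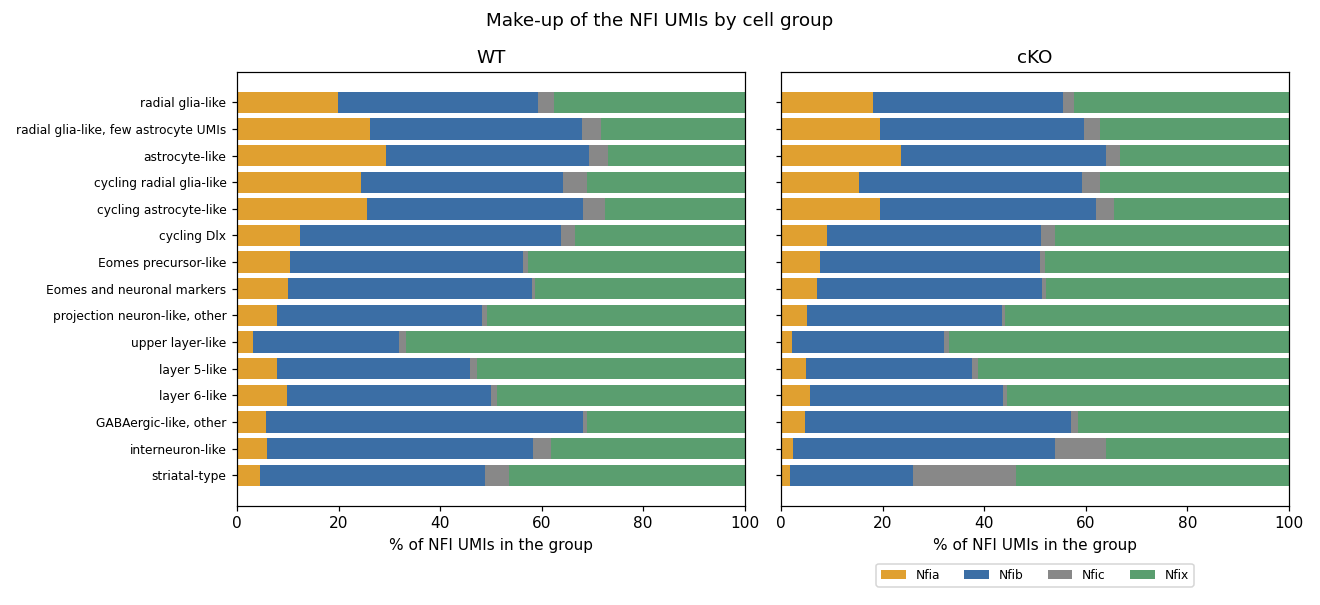
Share of each NFI gene among all NFI UMIs of a group (x axis, percent), in 15 neural groups of the WT (left) and cKO (right) library. Nfia takes 29.3% in astrocyte-like cells of WT and 3.16% in upper layer-like cells, where Nfix takes 66.7%.

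The second comparison set the cKO library against the WT library within each group. Of the 15 neural groups, Nfix was higher in cKO with an interval above 0 in 12, lower in 2 and not separated in 1. Its level over all kept cells was 1173 CPM (1164 to 1182) in WT and 2147 CPM (2134 to 2159) in cKO. In upper layer-like cells its log2 ratio (cKO over WT) was 0.85, with a 95% exact conditional interval of 0.82 to 0.87 as given in parentheses for the other ratios, and 8.46% of genes with at least 10 UMIs had a ratio as high. The median mitochondrial share of these cells also differed, at 6.59% in WT and 7.72% in cKO, and its part in the result was not tested. In layer 6-like cells it was 0.97 (0.90 to 1.04), the largest of the groups, and 5.98% of genes were as high. Astrocyte-like cells gave 0.51 (0.43 to 0.59) and Eomes precursor-like cells gave 0.47 (0.37 to 0.57), where 15.3% and 25.9% of genes were as high. Marker sums of the astrocyte-like cells differed between the libraries, at 2738 CPM in WT and 1849.6 CPM in cKO for the astrocyte list, 34699 and 26355 CPM for the radial glia list and 594 and 235 CPM for oligodendrocyte precursor markers, and their part in the member differences was not tested. Radial glia-like cells, the smallest group, gave 0.16 (-0.085 to 0.41).

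Nfib was higher in cKO in 10 of the 15 groups, lower in 4 and not separated in 1. The log2 ratio was 0.90 (0.86 to 0.94) in upper layer-like cells, 0.71 (0.63 to 0.78) in layer 6-like cells and 0.50 (0.46 to 0.53) in projection neuron-like cells without a layer call. In astrocyte-like and Eomes precursor-like cells it was smaller, at 0.21 (0.14 to 0.28) and 0.21 (0.12 to 0.31), and the first was -0.17 when cells were thinned to 2000 UMIs. The other GABAergic-like cells went the other way at -0.23 (-0.28 to -0.19), and cycling cells with Dlx genes at -0.16 (-0.24 to -0.085). Pan-neuronal markers in the other GABAergic-like cells summed to 7837 CPM in WT and 4789.8 CPM in cKO, and their part in the member differences was not tested. Nfib and Nfix were thus both higher in cKO in the projection neuron groups, but Nfix alone of the pair was higher in the other GABAergic-like cells, at 0.44 (0.38 to 0.50).

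Zbtb20 was lower in cKO in 13 of the 15 groups, higher in 1 and not separated in 1. The largest difference was in cells with both Eomes and neuronal markers, with 2314 CPM (2173 to 2461) in WT and 1247 CPM (1167 to 1332) in cKO and a log2 ratio of -0.89 (-1.02 to -0.76). Of these cells, 73.3% in WT lay in cluster 3 and 48.7% in cKO in cluster 1, clusters that each come almost wholly from 1 library, and the part of this in the result was not tested. Olfactory neuroblast markers summed to 1556 CPM in WT and 947 CPM in cKO in the same cells, and striatal-type markers to 68.9 and 19.5 CPM. In Eomes precursor-like cells the olfactory neuroblast markers summed to 1167 and 631 CPM. The part of these in the Zbtb20 ratios was not tested. Eomes precursor-like cells gave -0.70 (-0.83 to -0.57), radial glia-like cells -0.50 (-0.72 to -0.29) and astrocyte-like cells -0.40 (-0.46 to -0.33). Neurons without a layer call gave -0.52 (-0.56 to -0.48) and upper layer-like cells -0.58 (-0.65 to -0.51). In cells with both Eomes and neuronal markers 16.1% of all genes had a ratio as low, and in upper layer-like cells 34.1%, so its difference lay inside the spread of the genes at large. The ratio was 0.033 in upper layer-like cells under a stricter cell filter, which left 53 WT and 55 cKO cells there, and 0.074 in neurons without a layer call when cells were first thinned to 2000 UMIs. Layer 6-like cells were the exception, with 197 CPM in WT and 257 CPM in cKO and a ratio of 0.39 (0.20 to 0.58). Over all kept cells Zbtb20 was at 818 CPM in WT and 625 CPM in cKO.

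Outside the interneuron-like cells, Zbtb18 differed most between the libraries in the Eomes groups. In Eomes precursor-like cells 187 UMIs in WT and 131 in cKO gave a log2 ratio of -0.95 (-1.28 to -0.62). Olfactory neuroblast and striatal-type markers also differed there, at 1167 and 47.1 CPM in WT and 631 and 13.9 CPM in cKO. Of these Eomes precursor-like cells, 34.4% in WT lay in cluster 3 and 21.7% in cKO in cluster 1. The part of the markers and clusters in the ratio was not tested. In cells with both Eomes and neuronal markers the ratio was -1.08 (-1.37 to -0.79), again between different clusters, and 12.4% of genes were as low there. Projection neuron-like cells without a layer call gave -0.20 (-0.26 to -0.15), near the median of all genes at -0.16 and 0.048 when thinned to 2000 UMIs, and upper layer-like cells gave 0.046 (0.009 to 0.082). The step in Zbtb18 between Eomes cells and neurons was larger in cKO, where the log2 difference of Eomes cells with neuronal markers over neurons without a layer call was -1.64 (-1.86 to -1.42) against -0.76 (-0.96 to -0.57) in WT.

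The intervals of Nfia and Nfic included 0 in more of the 15 groups than those of Nfib, Nfix and Zbtb20. Nfia was lower in cKO in 7 of 15 groups and higher in 1. Its log2 ratios were -0.11 (-0.20 to -0.029) in astrocyte-like cells, -0.42 (-0.63 to -0.21) in cycling radial glia-like cells and 0.22 (0.088 to 0.34) in upper layer-like cells. The median ratio of all genes in astrocyte-like cells was also -0.11. Set against the median gene of each group, the Nfia interval lay below it in 5 groups and above it in 2. Thinned to 2000 UMIs, the astrocyte-like ratios of Nfia and Nfic were 0.11 and 0.021 and that of Nfia in neurons without a layer call was 0.63, against -0.077 (-0.16 to 0.0052). The Nfic ratio in Eomes precursor-like cells was -0.63 under the stricter cell filter, against 0.20 (-0.49 to 0.90). Nfic was higher in 3 groups and lower in 1, with 0.69 (0.36 to 1.01) in the other GABAergic-like cells and -0.28 (-0.53 to -0.032) in astrocyte-like cells. In the remaining 11 groups the interval for Nfic included 0, and differences of that size were not detectable at this depth.

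**Figure D3:**
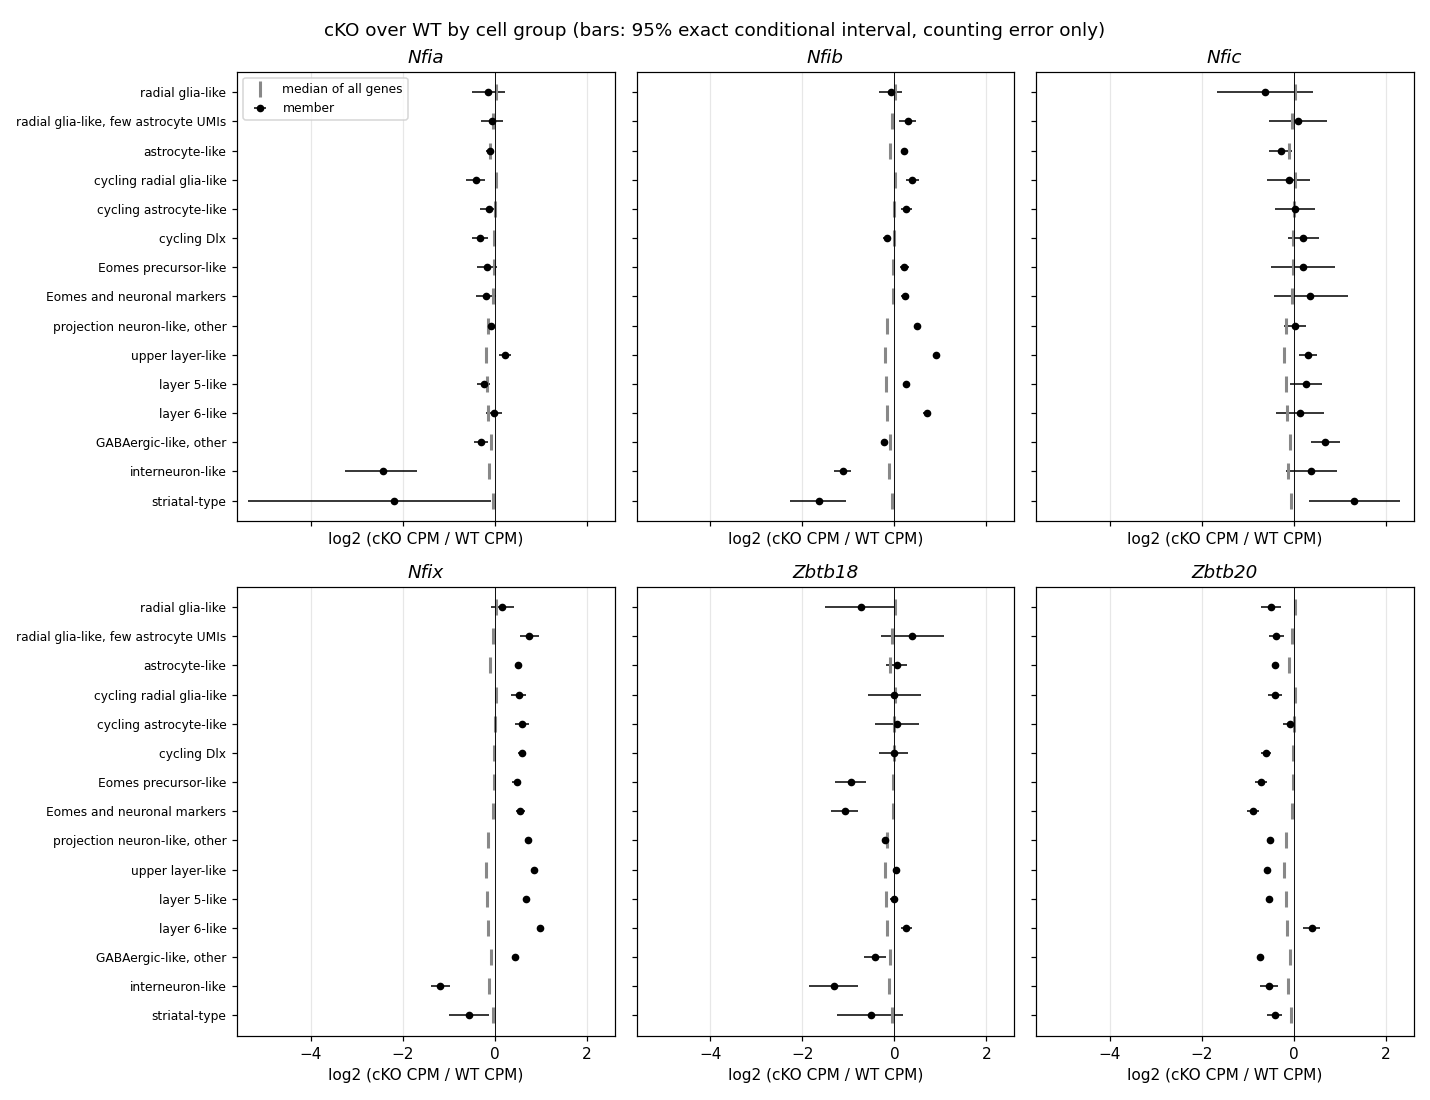
Log2 ratio of cKO over WT CPM for each member in 15 neural groups, with the 95% exact conditional interval; the grey tick is the median ratio of all genes with at least 10 UMIs in that group. Nfix lies above 0 in most groups and Zbtb20 below, whereas Nfia, Nfib, Nfix and Zbtb18 all lie below 0 in interneuron-like cells.

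In interneuron-like cells, 4 of the 6 members were over 2-fold lower in cKO, where 22.9% of genes passed 2-fold in either direction and 44.5% passed 1.5-fold. Nfib was at 490.5 CPM (453 to 529.8) in WT and 226 CPM (205 to 248) in cKO, and Nfix at 358 CPM (326 to 392) in WT and 158 CPM (140 to 177) in cKO. Their log2 ratios were -1.12 (-1.30 to -0.94) and -1.18 (-1.40 to -0.97). Nfia, with 73 UMIs in WT and 19 in cKO, gave -2.44 (-3.25 to -1.70), and Zbtb18, with 88 and 50 UMIs, gave -1.31 (-1.84 to -0.80). The cells in the gate were not alike in the libraries. The 7 markers of the gate, which include Sst, Npy and Lhx6, summed to 11359 CPM in WT and 5461 CPM in cKO. Cluster 12, assigned to the other GABAergic-like cells, held 18.4% of the interneuron-like cells in WT and 2.42% in cKO. The part of both in the result was not tested. Nfib was lower in cKO under all 11 alternatives, with log2 ratios from -1.37 to -0.26, whereas Nfix and Nfia were higher in cKO, at 0.53 and 0.23, when each cell was first thinned to 2000 UMIs, which left 40 WT and 34 cKO cells. Zbtb18 was at -0.35 after the same thinning. Striatal-type cells also had fewer Nfib UMIs in cKO, 149 against 29, with a ratio of -1.64 (-2.27 to -1.06).

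Free RNA in the droplets can give UMIs in cells that do not express a gene, and cells from outside the neural lineage were read as a guide to it. Microglia-like cells held Nfix at 56.3 CPM (39.5 to 78.0) in WT and 183 CPM (145 to 228) in cKO and Nfib at 28.2 CPM (16.7 to 44.5) in WT and 151 CPM (116 to 192) in cKO. The cKO values rest on 30 cells, of which 9 held all 65 Nfib UMIs. Endothelial-like cells held Nfix at 46.7 CPM in WT and 35.8 CPM in cKO and Nfib at 256 CPM in WT and 291 CPM in cKO. The level outside the neural lineage thus varied by cell type. In cKO interneuron-like cells Nfia and Zbtb18, at 10.2 and 26.8 CPM, were below the 30.2 and 95.1 CPM of microglia-like cells. In WT interneuron-like cells they were at 55.3 and 66.6 CPM, against 29.7 and 47.0 CPM in microglia-like cells. Endothelial-like cells of cKO held them at 96.6 and 18.7 CPM, and striatal-type cells of cKO held Nfia at 2.15 CPM. The microglia-like level is therefore not a floor common to all groups. Nfix and Nfib in cKO interneuron-like cells, at 158 and 226 CPM, each lay between the endothelial-like and microglia-like levels of cKO. How much of the 4 values of cKO interneuron-like cells was free RNA was not tested. In Eomes, astrocyte-like and projection neuron groups, Nfia, Nfib, Nfix and Zbtb20 were above the microglia-like level of their library. Nfia in upper layer-like cells, at 81.7 CPM in WT and 94.8 CPM in cKO, was not above the 114 and 96.6 CPM of endothelial-like cells. It was above the 9.79 and 2.15 CPM of striatal-type cells. How much of the upper layer-like Nfia level was free RNA was not tested.

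The members were next counted past 2-fold and past 1.5-fold in 7 groups and set beside all genes. No member passed 2-fold in radial glia-like (21.3% of genes passed), astrocyte-like (17.5%), Eomes precursor-like (23.0%), unassigned projection neuron-like (24.2%), upper layer-like (27.3%) or other GABAergic-like cells (24.4%). Past 1.5-fold, Nfib and Nfix were higher in upper layer-like cells, where 48.4% of genes passed, and Nfix in neurons without a layer call, where 45.8% passed. Zbtb18 and Zbtb20 were lower past 1.5-fold in Eomes precursor-like cells (46.9% of genes). In the other GABAergic-like cells Nfic was higher and Zbtb20 lower (47.0%), in radial glia-like cells Nfic and Zbtb18 were past 1.5-fold lower but with intervals that included 0 (44.1%), and in astrocyte-like cells no member passed (37.9%). In these 6 groups the member counts were not above the background shares. Of the 4 members counted in interneuron-like cells, Nfia and Zbtb18 had cKO values below the microglia-like level. Outside the 7 groups, 1 member was over 2-fold higher and 2 were lower in striatal-type cells. Of 10094 genes there, 644 were higher and 1381 lower. In cells with both Eomes and neuronal markers 1 member was over 2-fold lower, where 772 of 8569 genes were higher and 1169 lower. Over the 15 neural groups, the median log2 ratio of all genes lay between -0.20 in upper layer-like cells and 0.023 in cycling radial glia-like cells.

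Shares of cells with at least 1 member UMI were compared after each cell was thinned to 1000 UMIs. Nfib was found in 49.1% (95% Clopper-Pearson interval 46.1 to 52.1%) of WT and 69.5% (95% Clopper-Pearson interval 66.6 to 72.4%) of cKO upper layer-like cells. Nfix was found in 75.4% (826 of 1095) and 88.6% (896 of 1011) of them, and Zbtb20 in 29.7% (325 of 1095) and 19.8% (200 of 1011). The same direction held in astrocyte-like cells, with Nfix in 42.1% (229 of 544) of WT and 54.2% (194 of 358) of cKO cells and Zbtb20 in 65.8% (358 of 544) and 58.1% (208 of 358). Nfib and Nfix were detected together in 38.7% of WT and 63.1% of cKO upper layer-like cells. Before thinning, Nfix was found in 99.5% (1089 of 1095) and 99.9% (1010 of 1011) of upper layer-like cells, against 46.6% (27 of 58) and 53.3% (16 of 30) of microglia-like cells. In microglia-like cells thinned to 1000 UMIs, with median depths of 9905 and 12022 UMIs before thinning against 9755 and 10099 in upper layer-like cells, Nfix was found in 13.8% (8 of 58) and 13.3% (4 of 30) and Nfib in 6.90% (4 of 58) and 3.33% (1 of 30). Zbtb20 was found in 0 of 58 thinned WT microglia-like cells, where a limit of 3 cells allows a share of up to 5.17% with a UMI at this depth, and in 3.33% (1 of 30) in cKO. Before thinning it was found in 17.2% (10 of 58) of the WT microglia-like cells. Zbtb18 was found in 9.56% (52 of 544) and 8.10% (29 of 358) of astrocyte-like cells. Its share of 3.45% (2 of 58) and 13.3% (4 of 30) in microglia-like cells had an interval that overlapped these, and in cKO the share in astrocyte-like cells was not above it. By CPM in cKO, Zbtb18 was at 92.9 in astrocyte-like, 95.1 in microglia-like and 18.7 in endothelial-like cells. How much of the astrocyte-like level was free RNA was not tested.

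**Figure D4:**
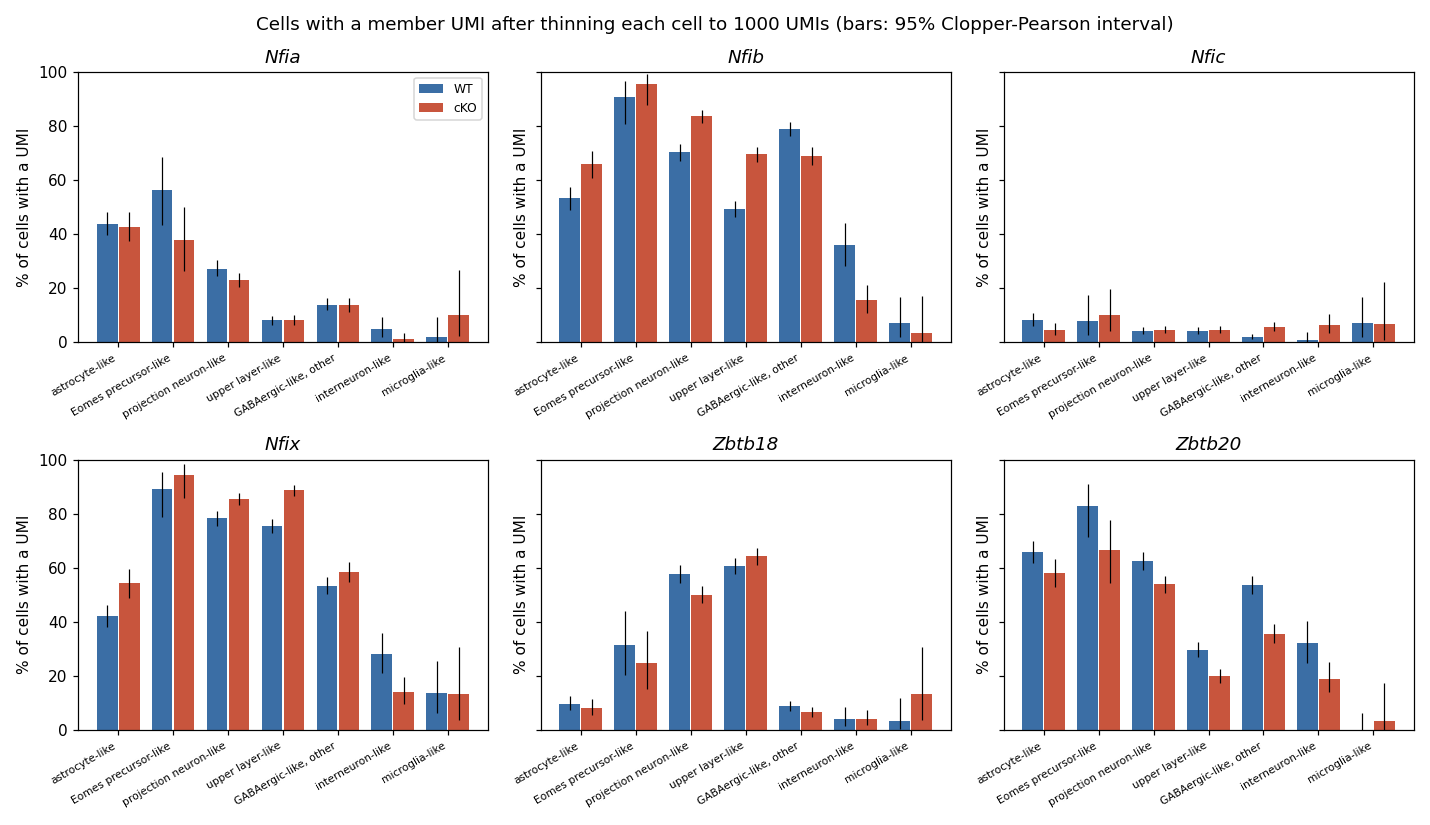
Percent of cells with at least 1 UMI of each member after thinning every cell to 1000 UMIs, in 7 groups of the WT (blue) and cKO (red) library, with 95% Clopper-Pearson intervals. In upper layer-like cells Nfib is found in 49.1% of WT and 69.5% of cKO cells, and microglia-like cells are shown as cells from outside the neural lineage.

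Across the 20 groups with at least 20 cells in each library, giving 40 profiles of log2(CPM + 10), the levels of Nfib and Nfix had a Pearson r of 0.91, the highest of the 15 member pairs. Nfix and Zbtb18 had an r of 0.76, and Nfib and Nfia an r of 0.77, while Nfic and Nfib had an r of 0.023. The 40 profiles share libraries and cell lineages, so these values describe the groups and carry no p. Ranked were 12533 genes with at least 50 UMIs in each library, and members and markers among them were left out of the naming. The closest to Nfix was Lhx2 (r of 0.87), a homeobox gene of cortical progenitors, then Nudt3 and Nr2f1. Lhx2 was also among the closest to Nfib (r of 0.80), after Rsrc2 and before Gm17750. For Zbtb18 the closest were Prdm8, Cldn3 and Ttc28 (r of 0.82 to 0.87), for Zbtb20 Ankrd6, Prdx2 and Arhgap21 (r of 0.84 to 0.88), for Nfia Mdk, Ddah2 and Ctbp2 (r of 0.84 to 0.86), and for Nfic Fam120a, Ptbp1 and Smo (r of 0.87 to 0.89).

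The 38 other Zbtb genes of the matrices, a large family of DNA-binding proteins, were read in the same 7 groups. Of 196 gene and group pairs with at least 10 UMIs, 22 were over 2-fold higher and 18 over 2-fold lower in cKO, 20.4% in all, close to the shares of all genes given above. Zbtb4, which binds methylated DNA, was over 2-fold lower with intervals apart in 5 of the 6 groups in which it was tested. In upper layer-like cells it had 180 UMIs in WT and 29 in cKO, a log2 ratio of -2.61 (-3.23 to -2.04). These levels of 15.5 and 2.53 CPM were below the 21.9 and 4.64 CPM of microglia-like cells (14 and 2 UMIs). They were also below the 17.9 and 14.0 CPM of endothelial-like cells, and the part of free RNA was not tested. Zbtb40 and Zbtb8b were also lower in cKO in upper layer-like cells, at -2.56 (-4.29 to -1.18) and -1.85 (-2.91 to -0.91). In the other GABAergic-like cells Zbtb39 and Zbtb49 were higher, at 1.81 (1.13 to 2.55) and 1.51 (0.75 to 2.32), and Zbtb40 had 23 UMIs in WT and 3 in cKO, a log2 ratio of -2.71 (-5.09 to -0.98). In astrocyte-like cells Zbtb16 had 9 UMIs in WT and 52 in cKO, a log2 ratio of 2.79 (1.75 to 3.99), with Zbtb8a at 3.06 (1.32 to 5.45) on 3 and 21 UMIs and Zbtb42 at 2.06 (0.89 to 3.41). The levels in endothelial-like cells of cKO were not below these, with Zbtb16 at 57.6 CPM against 15.9 CPM in astrocyte-like cells, Zbtb8a at 21.8 against 6.44 CPM and Zbtb42 at 9.35 against 8.58 CPM, and the part of free RNA or other cells in these ratios was not tested. In upper layer-like cells Zbtb16 was lower, with 48 UMIs in WT and 17 in cKO, a log2 ratio of -1.48 (-2.37 to -0.65). Zbtb7a was the single gene past these limits in Eomes precursor-like cells, with 17 UMIs in WT and 59 in cKO, a log2 ratio of 1.36 (0.56 to 2.23). In neurons without a layer call Zbtb4 was at -2.18 (-2.73 to -1.65), Zbtb8b at -1.64 (-2.95 to -0.46) and Zbtb40 at -4.81 (-10.18 to -2.18) on 21 and 1 UMIs, and in interneuron-like cells Zbtb4 was at -2.78 (-4.20 to -1.58). The genes named are not all that passed these limits. In astrocyte-like cells 3 passed as higher and 3 as lower, in neurons without a layer call 2 and 3, and in upper layer-like cells 2 and 6.

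Genes known to lie downstream of the members were read last. Of 14 genes linked to the NFI proteins, 12 were tested in astrocyte-like cells, and 4 were over 2-fold lower and 0 higher in cKO, with a median log2 ratio of -0.35 beside -0.11 for all genes. In these cells 17.5% of all genes passed 2-fold, and 3 of the 4 were also markers of the gate. Ezh2, a histone methyltransferase that NFI proteins are known to repress, was over 2-fold lower with intervals apart in all 7 groups. It had 379 UMIs in WT and 31 in cKO, a log2 ratio of -3.36 (-3.93 to -2.83), in astrocyte-like cells and 99 UMIs in WT and 4 in cKO, a log2 ratio of -5.07 (-6.97 to -3.66), in Eomes precursor-like cells. Outside the neural lineage Ezh2 had 47 UMIs in WT and 4 in cKO in microglia-like cells and 60 and 1 in endothelial-like cells. Markers of cycling cells summed to 1693.5 CPM in WT and 1914 CPM in cKO in microglia-like cells and to 813 and 107.5 CPM in endothelial-like cells. The part of free RNA or of cycling cells in these counts was not tested. Gfap, the intermediate filament of astrocytes, had 58 UMIs in WT and 22 in cKO, a log2 ratio of -1.77 (-2.55 to -1.04), in radial glia-like cells. Aqp4, a water channel that is also an astrocyte marker used for the gate, had 1089 UMIs in WT and 286 in cKO, a log2 ratio of -1.67 (-1.87 to -1.48), in astrocyte-like cells. Slc1a2, a glutamate transporter, had 43 and 16 UMIs in interneuron-like cells, at -1.92 (-2.85 to -1.07), a cKO level of 8.57 CPM where endothelial-like cells held 3.12 CPM. Over the 7 groups, 3 gene and group pairs were higher and 15 lower of 62 tested, or 29.0% past 2-fold, where between 17.5% and 27.3% of all genes passed in the same groups. Ezh2 made 7 of these 18 pairs, and without it 11 of 55, or 20%, passed.

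Of 9 genes linked to Zbtb18, 0 of 56 tested pairs were over 2-fold higher and 9 were lower, or 16.1%, which is not above the 17.5% to 27.3% of all genes in these groups. Unc5d, a netrin receptor of migrating neurons, was lower in 3 groups and had 73 UMIs in WT and 40 in cKO, a log2 ratio of -1.30 (-1.90 to -0.73), in Eomes precursor-like cells. Id4, an inhibitor of basic helix-loop-helix factors, was lower in 3 groups and had 131 UMIs in WT and 47 in cKO, a log2 ratio of -1.90 (-2.41 to -1.41), in neurons without a layer call, where its cKO level of 5.60 CPM was near the 4.64 CPM of microglia-like cells. Neurod1, a proneural factor, had 27 UMIs in WT and 7 in cKO, a log2 ratio of -1.72 (-3.16 to -0.48), in the other GABAergic-like cells. Of 10 genes linked to Zbtb20, 2 of 64 pairs were higher and 10 lower, or 18.8%, which lies within the same range for all genes. Rorb, a layer 4 factor, had 1248 UMIs in WT and 481 in cKO, a log2 ratio of -1.35 (-1.51 to -1.20), in upper layer-like cells. Cux2, which is also a marker of the upper layer gate, was at -1.35 (-1.56 to -1.14) in neurons without a layer call, and Tbr1, a layer 6 marker, was at -1.36 (-2.30 to -0.49) in the other GABAergic-like cells. Tbr1 stood there at 9.31 CPM in WT and 3.64 CPM in cKO, near the 6.26 and 4.64 CPM of microglia-like cells, and was not read as expression.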

How the data were processed

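Single cells of telencephalic tissue were measured by droplet RNA sequencing in 1 WT and 1 cKO library. The authors deposited 1 matrix of raw UMI counts per library, not normalized, and these counts were used as deposited. The file headers name Cell Ranger 3.0.1, while the submitters' processing notes name Cell Ranger 2, STAR, Seurat and mm9. Whether strand was used in counting is not given in the sources used here. Matrices held 10715 WT and 9198 cKO barcodes with 69554624 and 67448785 UMIs.

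Cells with at least 500 genes and at most 10% mitochondrial UMIs were kept (6766 and 6080); the stricter filter took at least 1000 genes and at most 5%. Scrublet, run through Scanpy 1.11.5, scored doublets. A score above 0.25, set by hand, marked doublets because the automatic threshold marked 0 cKO cells, and 165 WT and 106 cKO cells were left out (2.44% and 1.74%). Cells were grouped by marker UMIs, at minima set after the marker distributions were seen, and cells passing conflicting gates were left out (221 WT, 136 cKO). The members and lists were chosen with earlier results of these data known.

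UMIs were summed per group and library, scaled to CPM and given exact 95% Poisson intervals. Ratios have exact conditional binomial intervals and shares Clopper-Pearson intervals (SciPy 1.17.1, numpy 2.4.6, Python 3.11.15). All cover counting error only. With 1 library per genotype no p was computed. Fold changes across all genes used genes with at least 10 UMIs in a group. Named were all members, the 3 most correlated genes per member, at most 3 other Zbtb genes per group and at most 4 genes per downstream list, each past 2-fold with intervals apart. Zbtb16 in upper layer-like cells was named in addition. A gene that the rule names is not reported here. Likeness used 20 groups with at least 20 cells in each library. Gene positions came from GENCODE mouse 21 and promoters from RefSeq. TMM factors came from edgeR 4.0.16 in R 4.3.3, for scaling alone. The scripts were tested on simulated data. Alternatives changed the cell filter, doublets, marker minima, clusters in place of gates, depth and scaling.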

Additional observations from a re-analysis of the deposited data

Results flagged for a closer look

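For each member, the 2 neural groups with at least 50 cells in each library whose cKO over WT ratios lay farthest apart in opposite directions, with intervals that did not include 0, are given here. The differences were not tested, because each library gives 1 value per group. For Nfia the log2 ratio was 0.22 in upper layer-like and -2.44 in interneuron-like cells, a difference of 2.66. For Nfib it was 0.90 in upper layer-like and -1.64 in striatal-type cells, a difference of 2.54. Nfic gave 1.30 in striatal-type and -0.28 in astrocyte-like cells, a difference of 1.59. Nfix gave 0.97 in layer 6-like and -1.18 in interneuron-like cells, a difference of 2.15. Zbtb18 gave 0.26 and -1.31 in the same groups, a difference of 1.57. Zbtb20 gave 0.39 in layer 6-like cells and -0.89 in cells with both Eomes and neuronal markers, a difference of 1.28. Several of these values are low. In cKO, Nfia and Zbtb18 in interneuron-like cells and Nfib in striatal-type cells were below their level in microglia-like cells. The part of free RNA in the differences that use these values was not tested. Nfix in interneuron-like cells was above its endothelial-like and not above its microglia-like level, and Nfic in striatal-type and astrocyte-like cells was not above its microglia-like level, which need not be background for a widely expressed gene; the part of free RNA in these values was not tested. Nfia, Nfix and Zbtb18 in interneuron-like cells were at 0.23, 0.53 and -0.35 when cells were thinned to 2000 UMIs.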

How the results depend on the processing

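Under 11 alternatives, 282 of 390 ratios of cKO over WT moved by less than their interval, 97 moved further and 11 whose interval did not include 0 changed sign. Ratios whose interval included 0 also changed sign, among them Nfia in projection neuron-like cells without a layer call (0.63 thinned to 2000 UMIs) and Nfic in Eomes precursor-like cells (-0.63 under the stricter filter). Of 226 differences between groups within a library, 135 stayed within their interval, 89 moved and 2 changed sign. Thinning each cell to 2000 UMIs before grouping turned Nfia in astrocyte-like and interneuron-like cells to 0.11 and 0.23, Nfib and Nfic in astrocyte-like cells to -0.17 and 0.021, Nfix in interneuron-like cells to 0.53, Zbtb18 in projection neuron-like cells without a layer call to 0.048, and Zbtb20 in those cells and in interneuron-like cells to 0.074 and 0.47. It kept 11 WT and 4 cKO upper layer-like cells, so no cKO difference of Eomes over upper layer-like cells was computed. The stricter cell filter turned Zbtb20 in upper layer-like and interneuron-like cells to 0.033 and 1.00 and Nfib of astrocyte-like over upper layer-like cells in WT to -0.092, and the mean of single-cell CPM turned the last to -0.015. With Leiden clusters Nfia in the other GABAergic-like cells was at 0.038. The causes were not tested. Of the 18 genes named as most like the members, 6 were named again from WT groups alone and 9 from cKO groups alone. Gene and group pairs of other Zbtb genes past the fold, over 7 groups, numbered 94 at 1.5-fold and 18 with at least 50 UMIs, against 40. Leaving out the highest 5% of doublet scores was chosen after seeing the data, as was leaving each gene out of the downstream lists. No paired analysis was possible because each genotype had 1 library. The interval of Nfic included 0 in 11 of 15 groups.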
